A study of Mus musculus with 4 samples.

Results

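The Sp family of transcription factors was examined in mouse embryonic stem (ES) cells, the self-renewing pluripotent cells of the early embryo, with and without the repressor gene Snai1. The family was given as 7 genes (Sp1, Sp2, Sp3, Sp4, Sp5, Sp6 and Sp8), and its members were the probe sets, the groups of short probes that each report 1 transcript, that the platform annotation assigned to exactly 1 gene, that gene being one of the 7. This gave 12 probe sets for 6 genes, among 45037 probe sets other than the manufacturer's controls: 3 for Sp1, 1 for Sp3, 2 for Sp4, 1 for Sp5, 4 for Sp6 and 1 for Sp8. Sp2 had no such probe set and was not analysed here. The family was chosen because the Sp3 probe set had already been seen to be lower in the knockout, so all knockout against control differences of its members are given as a description. The calls that a fit over all probe sets makes among them are printed beside the share called over all probe sets, and support nothing.

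RNA had been labelled from its 3' end and hybridised to 4 Affymetrix arrays, 2 of Snai1 knockout ES cells (titled KO.ES) and 2 of control ES cells (titled F/F.ES, genotype control, with the words knock out also in the source name). The labels do not explain F/F, so which group is the knockout was taken from the titles and the genotype field. All cells were grown with leukaemia inhibitory factor, which keeps ES cells undifferentiated, and with feeder cells, and received no other treatment. The labels call the 2 samples of a group biological replicates but do not say whether they were separate clones, cultures or days. An SD therefore measures only the spread between these samples. Each SE comes from limma, which combines that spread with the typical spread of all probe sets or genes fitted on the same 4 arrays.

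Sp factors are zinc finger proteins that bind GC-rich DNA, above all the GC box GGGCGG found in many promoters. Sp1 and Sp3 are made in nearly all cells and compete for the same sites. Sp1 mainly activates, whereas Sp3 can activate or repress depending on its isoform and on modification by SUMO. Sp4 is best known from neurons, Sp5 and Sp8 are developmental factors linked to Wnt signalling, and Sp6 (epiprofin) acts in tooth, skin and limb epithelium. The 3 zinc fingers of the family are shared with the Kruppel-like factors, several of which sustain the ES cell state.

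The promoters of Sp1, Sp3 and Sp4 hold GC boxes themselves, and are shown for that reason. Each line gives the 250 bases before the outermost start site of each gene (RefSeq, GRCm38.p6), 5' to 3' on the gene's strand, with every GGGCGG, or its reverse complement CCGCCC, in capitals.
Sp1 (chr15:102406066-102406315, + strand): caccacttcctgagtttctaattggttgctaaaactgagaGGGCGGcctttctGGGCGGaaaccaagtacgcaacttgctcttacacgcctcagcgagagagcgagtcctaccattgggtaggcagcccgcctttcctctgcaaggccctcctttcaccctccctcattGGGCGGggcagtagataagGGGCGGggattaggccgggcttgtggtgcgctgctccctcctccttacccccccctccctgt
Sp3 (chr2:72980447-72980696, - strand): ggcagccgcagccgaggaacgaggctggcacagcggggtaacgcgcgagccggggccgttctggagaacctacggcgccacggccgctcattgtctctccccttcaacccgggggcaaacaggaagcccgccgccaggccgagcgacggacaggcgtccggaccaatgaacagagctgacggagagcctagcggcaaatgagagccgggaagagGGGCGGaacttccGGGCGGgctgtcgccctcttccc
Sp4 (chr12:118301441-118301690, - strand): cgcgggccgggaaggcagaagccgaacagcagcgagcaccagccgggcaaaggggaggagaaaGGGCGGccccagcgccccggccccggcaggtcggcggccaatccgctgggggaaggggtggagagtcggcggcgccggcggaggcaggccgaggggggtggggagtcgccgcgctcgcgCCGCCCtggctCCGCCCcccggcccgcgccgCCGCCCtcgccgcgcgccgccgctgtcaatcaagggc
The Sp1 stretch held 4 GC boxes, all on the gene's strand and arranged as 2 pairs, the Sp3 stretch held 2 close to the start, and the Sp4 stretch held 4 over both strands. The full window ran from 250 bases before to 50 after the outermost start. It held 4 GC boxes for Sp1, 2 for Sp3 and 5 for Sp4, and none for Sp2, Sp5 and Sp8. Sp6 had no promoter window in the sources used here. Among the promoters of 27025 genes in the same RefSeq collection, 35.9% held at least 1 GC box, 19.6% at least 2 and 5.52% at least 4. At inner starts, a second Sp3 window (chr2:72979232-72979531) held 5, one of Sp2 held 2 and one of Sp8 held 1. These letters describe the windows only and do not show that any factor bound there.

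The arrays had medians of 4.91 to 4.95 on the deposited log2 scale, on which 1 unit is a 2-fold difference. All 8 ES cell markers examined, among them Pou5f1, Sox2 and Nanog, lay between 9.09 and 14.25 on every array, each by its brightest probe set. Of the 8, 3 were called higher in the knockout: Pou5f1 by 0.85 ± 0.14, Nanog by 0.94 ± 0.15 and Esrrb by 1.05 ± 0.20 (SE, limma adjusted p = 0.0340, 0.0340 and 0.0426). The other Esrrb probe sets differed by 0.10 (at a mean of 8.48) and 0.74 (at a mean of 5.24). The 5 markers not called had differences from -0.38 (Fgf4) to 0.14 (Dppa5a). The alternative settings described below did not cover these markers. The mean level of 12 fibroblast markers, genes of the usual feeder cells, was higher in replicate 1 of each group (knockout 7.55, control 7.76) than in replicate 2 (knockout 6.93, control 7.11). Of the 12, 8 were higher in replicate 1 in both groups, and the rest were not. Their values ran from 4.19 (Lum) to 11.85 (Fn1), and 10 of the 12 were above the background range on all 4 arrays. Background was read from 27 control probe sets for Bacillus transcripts, which ranged from 2.91 to 4.77. Snai1 itself lay within that range on all 4 arrays, at 3.79 and 4.04 (knockout) against 4.41 and 4.69 (control) (difference -0.63 ± 0.16, SE, limma adjusted p = 0.0692). The sources used here do not place its probe set inside or outside the deletion, so it does not check the labels. The gap between the 3' and 5' control probe sets of Actb (beta-actin), a measure of RNA integrity and of how far labelling reached, was wider in the controls (3.02 and 2.97) than in the knockouts (1.11 and 0.80). That of Gapdh was 1.36 ± 0.17 for control and 0.34 ± 0.09 for knockout arrays (log2, SD, n = 2 each). That of Tfrc, the transferrin receptor, was also wider in the controls, by 1.01, whereas that of Pcx, pyruvate carboxylase, was 0.64 in the controls and 0.57 in the knockouts.

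Sp3 was lower in the knockout. Its only probe set (1431804_a_at) read 10.23 and 10.13 in control replicates 1 and 2, but 8.59 and 8.26 in knockout replicates 1 and 2. Both knockout arrays lay below both control arrays, all 4 were far above the background range, and the gap between the groups was several times the spread within either. The means were 8.43 ± 0.23 and 10.18 ± 0.07 (SD, n = 2 each), a log2 difference of -1.75 ± 0.15 (limma SE), or 3.37-fold lower. Of the 45037 probe sets, 3 had a more negative difference, a rank that follows from how the family was chosen. The same knockout arrays had an Actb gap smaller by 2.04. Sp3 spans 44.0 kb (GRCm38.p6 chr2:72936430-72980446), and after a loess trend with gene span and level was taken out of every array its difference was -1.61. With 1 array left out at a time it lay between -1.92 and -1.59. The single Sp3 probe set measures RNA, so its long and short protein isoforms, which arise from different translation starts, cannot be told apart. In bulk RNA, fewer cells with a transcript and less transcript per cell cannot be told apart either.

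**Figure D1:**
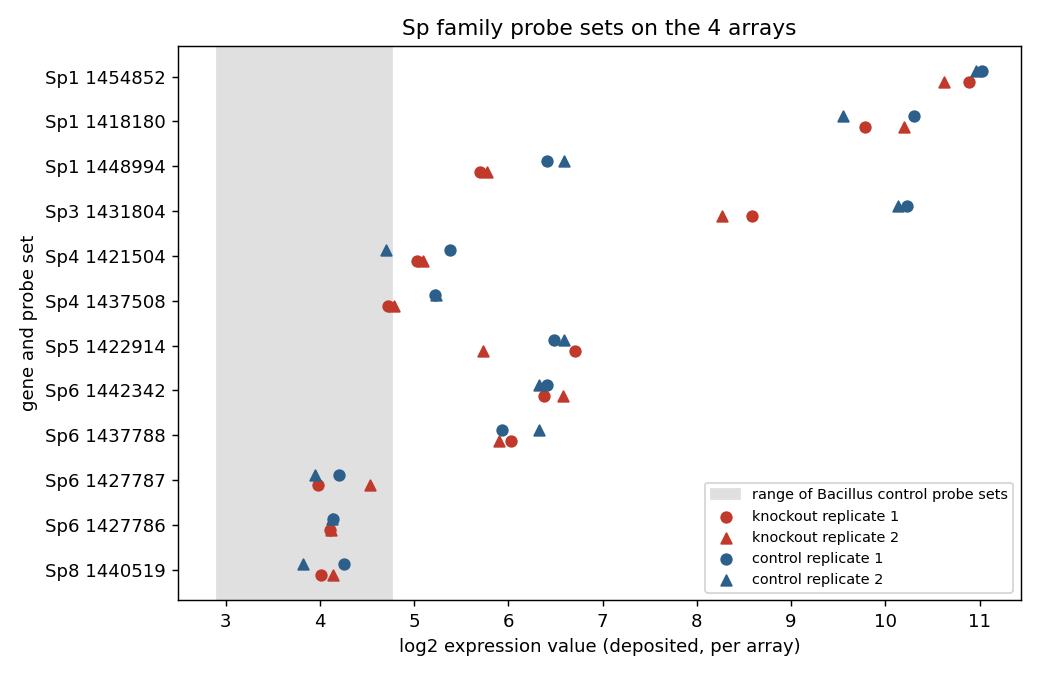
Deposited log2 expression value (horizontal axis) of each of the 12 Sp family probe sets (vertical axis) on each array, with knockout arrays in red, control arrays in blue and the Bacillus control range (2.91 to 4.77) in grey. The Sp3 knockout arrays sit at 8.26 and 8.59, left of the control arrays at 10.13 and 10.23, while the Sp8 probe set and the lower Sp6 pair lie inside the grey band.

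Sp1, the founding member of the family (GRCm38.p6 chr15:102406316-102436404), gave unequal readings from its 3 probe sets. The brightest (1454852_at) read 10.88 and 10.63 (knockout) against 11.03 and 10.96 (control), a difference of -0.24 ± 0.14 (SE). The groups did not overlap, but the nearest arrays were close together, and the difference was -0.12 after the span and level trend was removed. The second (1418180_at) read 9.78 and 10.19 (knockout) against 10.30 and 9.55 (control). Here the control arrays enclosed the knockout arrays, the difference was 0.06 ± 0.27 (SE), and its pooled within-group SD of 0.43 exceeded that of 96.6% of all probe sets.

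The third Sp1 probe set (1448994_at), annotated with the same sequence record as the second, read 5.70 and 5.77 (knockout) against 6.41 and 6.59 (control). Both knockout arrays were lower and all 4 arrays were above the background range. The difference was -0.77 ± 0.13 (SE), or 1.71-fold lower, and it lay between -0.86 and -0.68 with each array left out in turn. The second minus the third probe set gave gaps of 4.09 and 4.42 (knockout) against 3.89 and 2.95 (control), so the pair did not report Sp1 alike. The labels and annotation do not place these probes along the transcript, and whether the Actb gap has a part in this was not tested.

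Sp4 (GRCm38.p6 chr12:118231686-118301440, the longest member gene at 69.8 kb) was near background on both of its probe sets. The first (1421504_at) read 5.03 and 5.10 (knockout) against 5.38 and 4.71 (control), the last of these within the background range. The groups overlapped, with a difference of 0.02 ± 0.23 (SE), which changed sign with the array left out (-0.31 without control replicate 2 and 0.36 without control replicate 1). The second (1437508_at) read 4.72 and 4.78 (knockout) against 5.22 and 5.23 (control). These groups did not overlap, and the difference was -0.47 ± 0.12 (SE), with 1 knockout array within the background range. As with Sp1, one probe set of the gene separated the groups and another did not.

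**Figure D2:**
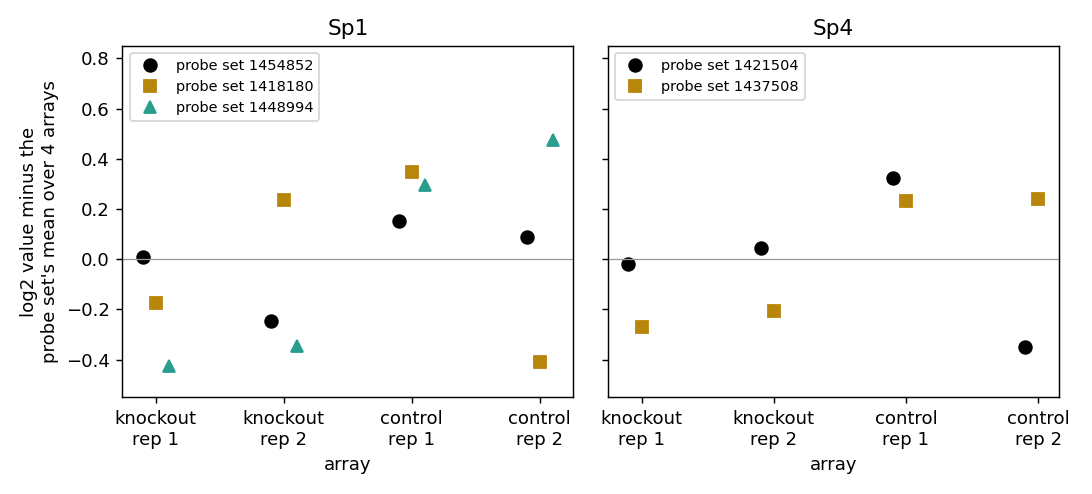
Log2 value of each Sp1 (left) and Sp4 (right) probe set on each array, minus that probe set's own mean over the 4 arrays (vertical axis), with arrays along the horizontal axis. Probe sets 1448994 of Sp1 and 1437508 of Sp4 are below 0 on both knockout arrays and above 0 on both control arrays, whereas 1418180 and 1421504 have control replicate 2 as their lowest array.

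Sp5, a direct target of Wnt/beta-catenin signalling, was measured by 1 probe set (1422914_at). Knockout replicate 1 read 6.71 and knockout replicate 2 read 5.74, against 6.49 and 6.59 in the controls. One knockout array was the highest of the 4 and the other the lowest, so the groups overlapped. The difference of -0.32 ± 0.30 (SE) became 0.17 without knockout replicate 2 and -0.80 without knockout replicate 1. The within-group SD of 0.49 was larger than that of 97.6% of probe sets.

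Sp6 had 4 probe sets, none of which showed a clear difference. The brightest (1442342_at) read 6.38 and 6.59 (knockout) against 6.41 and 6.32 (control), a difference of 0.12 ± 0.14 (SE) with overlapping groups. The second (1437788_at) read 6.03 and 5.90 (knockout) against 5.94 and 6.32 (control), also overlapping, with a difference of -0.16 ± 0.17 (SE). The remaining pair stayed within the background range on every array. Probe set 1427787_at ranged from 3.95 to 4.54 and overlapped between groups. Probe set 1427786_at ran from 4.11 to 4.14, and its groups, although they did not overlap, differed by only -0.02 ± 0.12 (SE).

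Sp8, a limb and forebrain patterning factor, was within the background range throughout. Its probe set (1440519_at) read 4.01 and 4.14 (knockout) against 4.26 and 3.82 (control), a difference of 0.04 ± 0.18 (SE). A transcript was therefore not detectable above background with this probe set, which does not show that it was absent.

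Taking the 12 probe sets as a family, 7 were above the background range on all 4 arrays (the 3 of Sp1, that of Sp3, that of Sp5 and the brighter pair of Sp6), the pair of Sp4 was above it on 3 arrays each, and 3 were within it on every array. The median difference over the 12 was -0.09, against -0.01 over all 45037 probe sets, whose middle 50% lay between -0.18 and 0.15. In limma over all probe sets (Benjamini-Hochberg adjusted p under 0.05), 1 of the 12, that of Sp3, was called lower and none higher, and 3 of the 12 had an unadjusted p under 0.05, against 19.5% of all probe sets. Over all probe sets 0.546% were called in either direction (0.107% lower, 0.44% higher). Nothing is read from this count, because the same contrast chose the family. In each fit with 1 array left out, none of the 12 was called, 3 or 4 had an unadjusted p under 0.05, and over all probe sets between 0 and 173 were called. The knockout arrays lay below the control arrays for 5 of the 12, which is 1 each for Sp3, Sp4 and Sp6 and 2 for Sp1, and above them for none. Over all probe sets the groups did not overlap for 49.4%, with the knockout below for 26% and above for 23.5%.

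**Figure D3:**
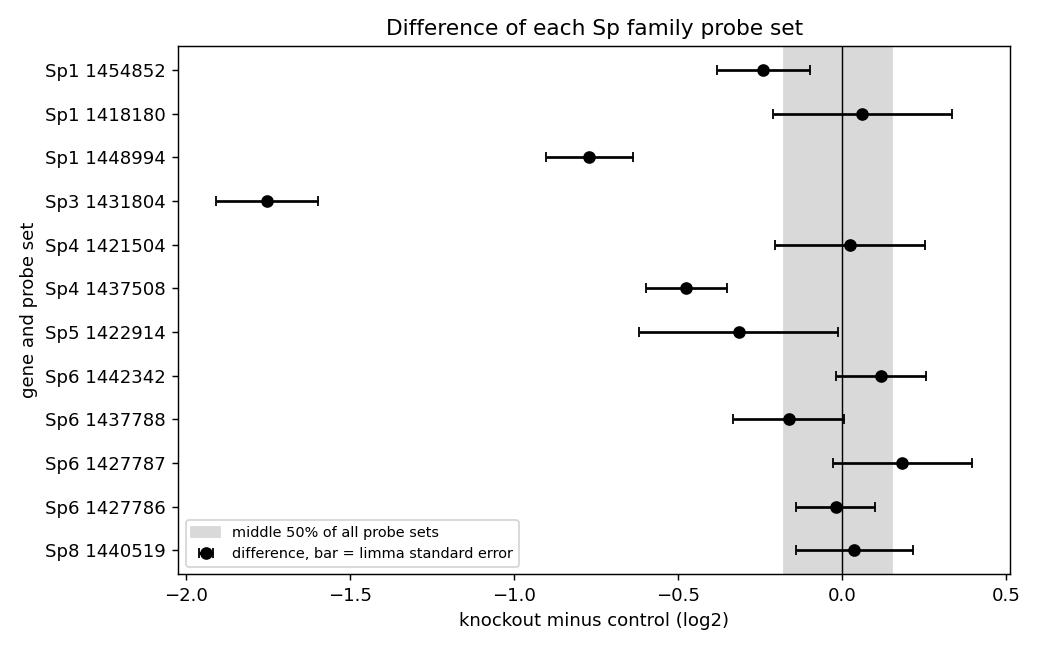
Log2 difference, knockout minus control (horizontal axis), of each Sp family probe set (vertical axis), with bars of 1 limma standard error and the middle 50% of all probe sets in grey (-0.18 to 0.15). Sp3 stands at -1.75, Sp1 1448994 at -0.77 and Sp4 1437508 at -0.47, while the bars of the other probe sets reach into the grey band.

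The members also varied between replicates. In 6 of the 12 probe sets knockout replicate 2 exceeded knockout replicate 1 while control replicate 1 exceeded control replicate 2, a combination seen in 22.8% of all probe sets. These were Sp1 1418180, Sp4 1421504, Sp8 1440519 and all Sp6 probe sets except 1437788. Among them, the Sp8 probe set and the dimmer Sp6 pair were within the background range on every array. The median within-group SD of the 12 was 0.19, against 0.14 over all probe sets and 0.16 over those with a mean of at least 6, as 7 of the 12 had.

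The genes whose values over the 4 arrays were nearest to those of Sp3, among 9258 named genes with a mean level of at least 6, were Septin10, Dcun1d1, Cxadr and Mbnl2, with root mean square distances of 0.20, 0.28, 0.31 and 0.32 log2 units after each gene was centred on its own mean. Septin10, a cytoskeletal GTPase gene, read 7.69 and 7.01 (knockout) against 8.77 and 8.88 (control). Dcun1d1, which promotes cullin neddylation, read 6.16 and 6.31 (knockout) against 7.52 and 7.95 (control). With 4 arrays such likeness amounts to a similar difference between the groups.

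Genes that work with Sp factors were then compared over genes, each by its brightest probe set (18193 genes, of which 4.14% passed an adjusted p of 0.05 in limma with Benjamini-Hochberg adjustment, 1.98% higher and 2.17% lower, at a median difference of -0.02). Among 22 measured coactivators and partners, which include TFIID and Mediator subunits, histone acetylases and deacetylases and NF-Y, 2 were called higher and none lower. Their median difference was -0.10, and 12 of the 22 had an unadjusted p under 0.05 in limma against 23.9% of all genes. All 22 had a mean of at least 6, and in a limma fit over such genes 11 of the 22, against 3305 of all 9484, had such a p. Taf7, named after its values were seen, had a difference of -0.55. It was called lower in that fit, after removal of the span and level trend and with the replicate number as a block. With that block 10 of the 22 were called, 4 higher and 6 lower. The genes called higher in the main fit encode Mediator subunits. The other Mediator subunits of the list went both ways, and none of them was called in that fit. Med14, Med1 and Med23 had differences of -0.52, -0.44 and -0.24, and Med26 had one of 0.34. Med27 read 7.01 and 7.58 (knockout) against 5.92 and 6.37 (control), a difference of 1.15 ± 0.23 (SE, limma adjusted p = 0.0453). Med24 read 8.09 and 8.01 (knockout) against 7.17 and 7.38 (control), a difference of 0.77 ± 0.14 (SE, limma adjusted p = 0.0418). Of 15 measured SUMO and O-GlcNAc enzymes, which modify Sp3 and Sp1, 1 was called higher and none lower, at a median of -0.09. In limma 6 of the 15 had an unadjusted p under 0.05. In the fit over genes with a mean of at least 6, 3 were called, 2 higher and 1 lower. With the replicate number as a block 5 were called, 3 higher and 2 lower. The gene called in the main fit was Pias4, a SUMO ligase, at 9.62 and 9.47 (knockout) against 8.77 and 8.51 (control), a difference of 0.90 ± 0.15 (SE, limma adjusted p = 0.0367). Its next probe set differed by 0.39. The knockout arrays, in which Med27, Med24 and Pias4 were higher, had the smaller Actb gap. With the mean over every probe set of a gene, none of these 3 passed, and none did with any 1 array left out. Med27, which has a single probe set and so kept its difference under that mean, was also not called after removal of the span and level trend, nor Med24 with an intensity trend in the fit.

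Of 16 measured Kruppel-like factors, 1 was called higher and 1 lower, with a median difference of -0.03. Klf5, which helps maintain naive pluripotency, read 10.87 and 10.17 (knockout) against 8.65 and 7.76 (control), a difference of 2.32 ± 0.32 (SE, limma adjusted p = 0.0283). The other Klf5 probe sets, both dimmer, differed by 1.16 (at a mean of 5.23) and -0.06 (at a mean of 3.73). Klf3, a repressor, fell on its brightest probe set, with 9.05 and 8.91 (knockout) against 9.59 and 9.64 (control), a difference of -0.64 ± 0.14 (SE, limma adjusted p = 0.0494). The other Klf3 probe sets went against this, with differences of 1.25, 0.72, 0.59, 0.08, 0.14 and 0.11, so no direction is given for Klf3 as a gene. The ES cell markers Pou5f1, Nanog and Esrrb, by their brightest probe sets, were higher in the same knockout arrays as Klf5. The other 5 of the 8 markers were not called, with differences from -0.38 (Fgf4) to 0.14 (Dppa5a). Klf5 was called under each alternative that kept the 4 arrays, but of those that left out an array only without control replicate 1. Klf3 was not called after removal of the span and level trend, after further quantile normalization, with an intensity trend, with all probe sets averaged or with any 1 array left out.

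None of the 23 measured genes known for GC boxes in their promoters, such as genes of growth control and nucleotide synthesis, passed the test, and 8 had an unadjusted p under 0.05 in limma, against 23.9% of all genes. Their median difference was -0.08. Cdkn1b, a cell cycle inhibitor named here after its values were seen, was called higher with a robust fit, after further quantile normalization, among probe sets with a mean of at least 6 and with the replicate number as a block, where 6 of these genes were called. The largest difference among the 23 was that of Igf1r, the receptor of insulin-like growth factor, at 7.27 and 6.85 (knockout) against 6.53 and 5.72 (control), a difference of 0.94 ± 0.27 (SE, limma adjusted p = 0.0897). None of 8 other factors that bind GC-rich sites passed (median difference -0.17), with 2 at an unadjusted p under 0.05 in limma, although Maz, a GC-rich site binder named after its values were seen, was called after further quantile normalization and with that block, where 3 of the 8 were called. The largest difference among them was that of Zfp148, at 7.71 and 7.54 (knockout) against 7.66 and 6.14 (control), where 1 low control array gave 0.73 ± 0.42 (SE, limma adjusted p = 0.354). Of 11 measured Wnt/beta-catenin targets, the setting of Sp5 and Sp8, 1 was called lower and none higher at a median of 0.08. Of the 11, 5 stayed within the background range. Lef1, a nuclear partner of beta-catenin, read 8.84 and 8.99 (knockout) against 9.55 and 9.81 (control), a difference of -0.76 ± 0.15 (SE, limma adjusted p = 0.0453). Its other probe set, near background, differed by 0.19. Lef1 was not called after removal of the span and level trend, with an intensity trend, with all probe sets averaged or with any 1 array left out. For Klf5, Klf3 and Lef1 too, the knockout arrays were those with the smaller Actb gap, whose part in these differences was not tested.

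Finally, all measured genes with a RefSeq promoter (14367) were grouped by the number of GC boxes in that window, as the sites that Sp factors bind. The median difference was -0.0020 for 6591 genes with none, -0.03 for 3266 genes with 1, -0.04 for 2010 genes with 2 and -0.07 for 2500 genes with 3 or more. The share of genes called lower was 1.44%, 2.30%, 2.69% and 3.48% in the same order, and the share called higher was 1.52%, 2.42%, 2.39% and 2.52%. The groups differed in other ways too. From none to 3 or more GC boxes, the median expression value was 5.01, 7.16, 7.45 and 7.52, and the median gene span was 16.8, 21.1, 25.01 and 29.2 kb. The median share of G and C in the promoter window was 52%, 60%, 64% and 69.3%. For genes with a mean level of at least 6, the medians were -0.06, -0.08, -0.08 and -0.14, and the shares called lower 3.54%, 3.27%, 3.56% and 4.50%. The shares of these genes called higher were 3.46%, 3.65%, 3.28% and 3.39%. The middle 50% of the genes with 3 or more GC boxes ran from -0.34 to 0.16. The median of genes with 3 or more minus that of genes with none was -0.07 with all arrays, between -0.12 and -0.03 with 1 array left out, -0.04 after removal of the span and level trend and -0.03 with all probe sets of each gene averaged. The spread of this quantity between replicates was 0.05 (pooled SD).

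**Figure D4:**
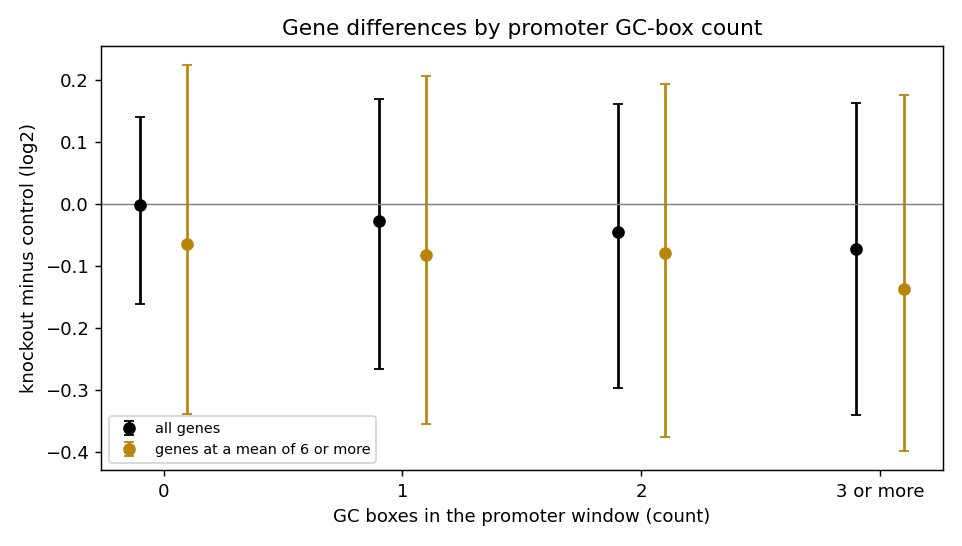
Log2 difference, knockout minus control (vertical axis), of genes grouped by the number of GC boxes in the promoter window (horizontal axis), with points at the median and bars over the middle 50% of genes, for all genes (black) and for genes with a mean level of at least 6 (ochre). The median of all genes moves from -0.0020 to -0.07 from left to right.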

How the data were processed

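Samples were grouped, and replicates numbered, from their titles. As deposited, each probe set had a log2 expression value, which per the submitters' processing notes came from RMA (background correction, quantile normalization between arrays and summary of the probes), with limma also named. For versions and settings: not given in the sources used here. A shift common to most genes can be lost in such normalization, whereas unequal RNA integrity stays.

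Gene names came from GEO's annotation of the platform, where 34958 probe sets had 1 gene symbol, 932 several and 9211 none. Gene IDs of 34754 were found in RefSeq (assembly GRCm38.p6), and 0 symbols needed updating. No build of the authors is known, and coordinates are RefSeq's.

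The groups were compared with limma 3.58.1 (lmFit, eBayes) in R 4.3.3, without covariates, over 45037 probe sets (64 controls left out) for the members and over 18193 genes, each by its probe set with the highest mean, for the lists. P-values were two-sided with Benjamini-Hochberg adjustment at 0.05. Each probe set had 2 residual and 4.11 prior degrees of freedom. Tested on simulated data for the 45037 probe sets of this comparison, the fit found 12 of 100 changed by 1 and 94 of 100 changed by 2 log2 units, with 2 false calls. The simulated noise was independent between probe sets and no others were changed. In the real data 19.5% of probe sets had an unadjusted limma p under 0.05, so these rates need not hold for them. GC boxes were counted on both strands of the window at each gene's outermost RefSeq start, overlapping matches included. The number of arrays limits the precision.

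The members and lists were chosen with earlier results of these data known. All members were named. Each list contributed at most 2 names, those of its called members that changed most, or 1 (its largest difference) where nothing was called, and for Sp3 the 4 genes nearest in pattern. Alternatives covered moderation, normalization, dim probe sets, probe sets per gene, a loess trend (span 0.3) with gene span and level, a fit with the replicate number as a block, and the omission of single arrays.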

Additional observations from a re-analysis of the deposited data

How the results depend on the processing

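With all 4 arrays kept, the difference of each member's brightest probe set moved by less than its pooled within-group SD in each alternative run. There were 10 of these for each gene except Sp4 (9) and Sp8 (8), whose dim probe sets were removed by the filters. Most of them, namely moderation, the filters, the brightest probe set over genes and the replicate block, cannot alter a difference. Those that can are further quantile normalization, median centring, removal of the span and level trend and, for genes with several probe sets, their mean. For Sp3, with 1 probe set, the values were -1.72, -1.77 and -1.61. For Sp4, Sp5 and Sp8 the sign depended on the array left out. The ranges with 1 array left out were -1.92 to -1.59 (Sp3), -0.37 to -0.11 (Sp1), -0.31 to 0.36 (Sp4), -0.80 to 0.17 (Sp5), 0.02 to 0.22 (Sp6) and -0.18 to 0.26 (Sp8). The count of called members, 1 with all arrays, was 0 with any 1 array left out, where 3 or 4 had an unadjusted limma p under 0.05. Since this contrast chose the family, these calls support nothing. Where an array was left out, the lone array of its group was assumed to vary like the remaining pair.

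Counts depended strongly on the setting, and the cause was not tested. Over all probe sets 246 were called, against 588 after a further quantile normalization, 507 at a mean of 6 or more, 754 with the brightest probe set of each gene, 518 after removal of the span and level trend, and 0 to 173 with 1 array left out (0 without either knockout array or without control replicate 2, where 6960, 5187 and 6686 had an unadjusted limma p under 0.05). Over genes 754 were called (360 higher, 394 lower), against 481 with an intensity trend (283 higher, 198 lower), 1224 at a mean of 6 or more (525 higher, 699 lower), 321 with all probe sets averaged (224 higher, 97 lower), and 4 to 50 with 1 array left out. In the 6 lists together 6 members were called, against 3 with an intensity trend, 10 at a mean of 6 or more, 1 with all probe sets averaged, and 0 to 1 with 1 array left out.

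Replicate numbers are shared by the groups, but the labels do not say what a number marks. Deviations of same-numbered arrays from their group means correlated at 0.11 over all probe sets. With the replicate block 2 members were called (Sp3 and Sp1 1448994), 1536 probe sets, 3092 genes and 30 list members, 14 higher and 16 lower.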
